A study of Mus musculus with 4 samples.

Results

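The enzymes that make cholesterol were examined in bulk RNA-Seq of nasal process (NP) tissues from E11.5 mouse embryos, the paired lateral and medial outgrowths that build the midface. The subject is 7 genes chosen by name, *Hmgcs1*, *Idi1*, *Fdft1*, *Sqle*, *Cyp51*, *Sc5d* and *Dhcr7*, because faults of sterol synthesis cause midline facial defects. All 7 are among the 13577 genes listed. There were 4 libraries, 2 titled control and 2 titled ca-*Acvr1* mutant. By the study's methods, both groups carry *P0-Cre*, a transgene in which the promoter of the myelin protein P0 gene drives Cre recombinase in neural crest cells. Mutants add 1 copy of the ca-*Acvr1* transgene of line A11, a single line in which the CAG promoter drives a constitutively active form of the BMP receptor ACVR1 once Cre has acted. Controls lack that copy, the mice were of mixed background, both sexes were combined, and the number of embryos behind a library is not given in the sources used here. A legend in the study's supplement gives a number of replicates larger than the 2 libraries per group analysed here. The genotype entries of the 4 libraries assign the groups the other way round, so every direction below follows the titles and would invert if those entries were right. Expression of *Acvr1* itself, at 21.5 and 23.1 CPM (a read count scaled to the library total, as deposited) in the controls and 24.1 and 12.6 CPM in ca-*Acvr1* libraries, did not separate the groups (limma adjusted p = 0.786), and whether 3′ reads of the transgene map to it is not given in the sources used here.

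Cells build cholesterol from acetyl-CoA by way of mevalonate, the isoprenoid units, squalene and lanosterol. The genes of this route are known to be switched on together by SREBP2, a transcription factor released from the endoplasmic reticulum when membranes run low in sterol. The route matters for the face because the SHH ligand carries a bound cholesterol, because the hedgehog transducer Smoothened is controlled by sterols, and because loss of the last enzymes, as in Smith-Lemli-Opitz syndrome (*DHCR7*) and lathosterolosis (*SC5D*), leads to facial malformation.

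None of the 7 enzymes passed the test between the groups. In limma's fit over the 12462 genes with a mean above 1 CPM, 0 of 7 had an adjusted p under 0.05, where 0.899% of all genes tested did, and 0 of 7 had an unadjusted p under 0.05, where 9.55% did. The count of adjusted calls was also 0 of 7 with edgeR, DESeq2 and limma-voom on the reads recovered from the CPM values, where these tools called 1.13%, 0.257% and 0.981% of all genes. Without adjustment, edgeR had 1 of 7 under 0.05, DESeq2 0 of 7 and limma-voom 1 of 7, beside 9.48%, 2.88% and 9.66% of all genes. The log2 fold changes of ca-*Acvr1* over control ran from −0.55 to 0.14, with 4 below 0 and 3 above, and their median was −0.10 beside 0.03 over all genes tested. Without ca-*Acvr1* replicate 1 that median was 0.13, on the other side of 0. With 2 libraries per group, and no label saying whether they came from separate embryos, these p-values measure only the spread between these libraries.

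The libraries held 1956831 and 2252586 reads in control and 2408827 and 2137027 reads in ca-*Acvr1* tissue, so 1 read was worth from 0.415 to 0.511 CPM. Markers of several cell types differed between the groups. Of 12 mesenchyme markers 11 were called lower in ca-*Acvr1* libraries, with a median log2 fold change of −0.99 and a summed level of 1964 and 2467 CPM in control against 1068 and 1126 CPM. Of all genes tested 0.594% were called lower and 0.305% higher. Of 12 epithelial markers 2 were called higher (*Epcam* and *Cdh1*, median 0.51), of 10 macrophage markers 2 (*Mrc1* and *Cx3cr1*, median 0.59), and of 12 neural markers 0 (median 0.36). Of the 8 erythroid, 10 endothelial and 5 muscle markers tested 0 were called, with medians of −0.16, −0.04 and −0.08. In bulk tissue fewer cells of a type and less RNA per cell cannot be told apart. The part that cell makeup played in the enzyme values was not tested.

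**Figure D1:**
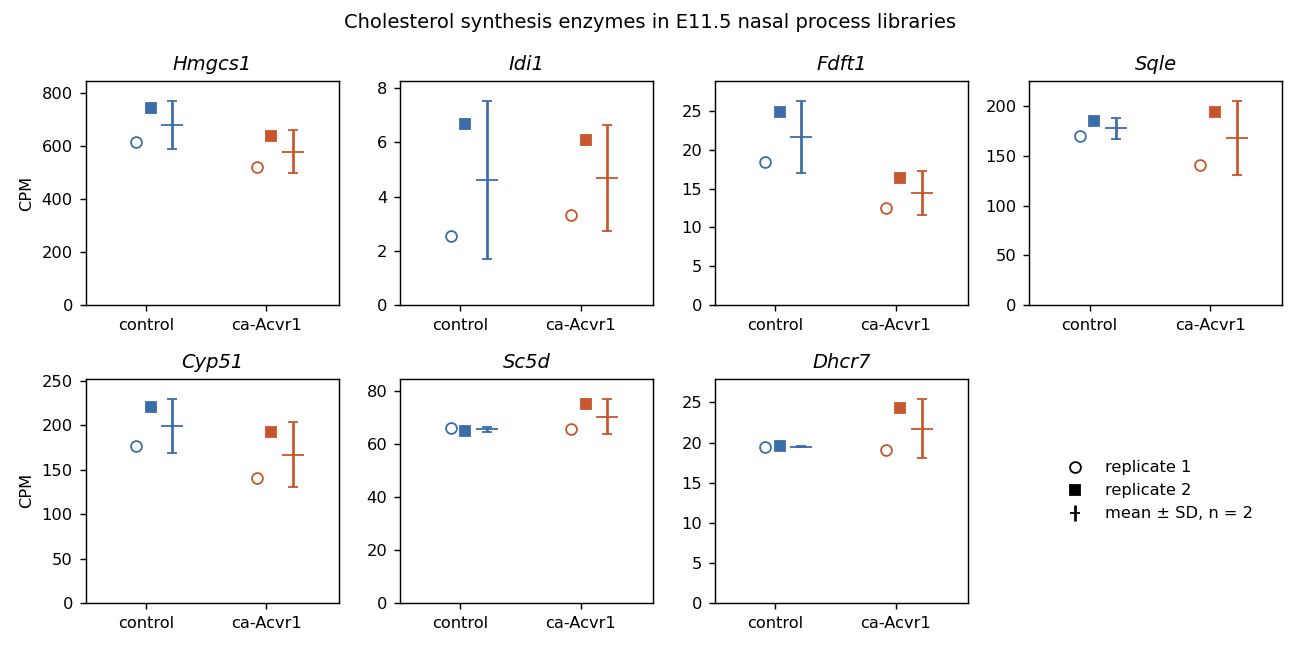
CPM of the 7 enzymes in each library, in pathway order, with open circles for replicate 1, filled squares for replicate 2 and the mean ± SD (n = 2) beside each group. Only *Fdft1* had both ca-*Acvr1* libraries below both control libraries.

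The stretch before the transcription start is shown for *Hmgcs1* and *Cyp51*, which ranked the 4 libraries in the same order, and for *Sc5d*, which did not. Each run is the 250 bases upstream of the RefSeq start in GRCm38.p6, read 5′ to 3′ on the strand of the gene. Capitals mark the letters TCACNNCA, the core of a sterol response element to which SREBP binds, and CCAAT, the box bound by NF-Y, each searched on both strands.
Hmgcs1, chr13:119690101-119690350, plus strand: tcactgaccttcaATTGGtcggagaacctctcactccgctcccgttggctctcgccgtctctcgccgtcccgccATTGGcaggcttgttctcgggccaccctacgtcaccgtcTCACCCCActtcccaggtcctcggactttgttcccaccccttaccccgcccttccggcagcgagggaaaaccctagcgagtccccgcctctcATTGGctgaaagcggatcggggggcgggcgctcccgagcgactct
Cyp51, chr5:4104698-4104947, minus strand: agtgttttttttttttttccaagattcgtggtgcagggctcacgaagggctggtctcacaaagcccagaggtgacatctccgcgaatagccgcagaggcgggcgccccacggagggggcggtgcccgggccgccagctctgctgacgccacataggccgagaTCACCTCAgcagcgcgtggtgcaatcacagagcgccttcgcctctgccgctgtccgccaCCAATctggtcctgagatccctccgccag
Sc5d, chr9:42264301-42264550, minus strand: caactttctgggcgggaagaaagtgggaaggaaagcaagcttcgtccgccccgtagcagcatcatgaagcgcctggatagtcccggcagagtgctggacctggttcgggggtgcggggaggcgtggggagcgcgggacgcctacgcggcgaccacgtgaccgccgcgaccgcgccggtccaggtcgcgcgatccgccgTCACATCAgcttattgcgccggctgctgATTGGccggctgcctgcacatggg

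In *Hmgcs1* the match starts 137 bases before the start site and extends to the longer form TCACNCCAC, which 1 of the 5 enzymes with a window and 1.22% of all genes hold, with 3 CCAAT boxes in the window. In *Cyp51* and *Sc5d* the match starts 88 and 52 bases before the start site, each with 1 CCAAT box. RefSeq windows were found for 16 of the 21 enzymes and for 5 of the 7, those of *Sqle* and *Fdft1* not being among them. A gene with several start sites, such as *Dhcr7* with 3, was counted if any of its windows held the letters. TCACNNCA was present for 4 of these 5 enzymes, all but *Idi1*, and for 7 of the 16, where 13.0% of the 27025 genes with a window and 11.3% of the 9751 of them tested here hold it. CCAAT was present for 5 of 5 and 15 of 16, beside 37.5% and 40.9%, and the GC box GGGCGG for 5 of 5 and 15 of 16, beside 35.4% and 64.9%. A match is a run of letters and not a site of binding. The relation between matches and expression was not tested.

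*Hmgcs1* (Entrez 208715, chromosome 13 of GRCm38 from 119690379 to 119708260, plus strand) encodes HMG-CoA synthase, which acts early in the mevalonate route. It was at 617 and 743 CPM in the control pair against 521 and 638 CPM in ca-*Acvr1* libraries, from 1207 to 1673 reads each. The higher ca-*Acvr1* value lay above the lower control value, so the groups overlapped. Group means were 679.8 ± 89.0 and 579.6 ± 82.3 CPM (SD, n = 2 each), giving a log2 fold change of −0.23 (standard error, SE, 0.14, with a 95% interval from −0.52 to 0.06, limma adjusted p = 0.675). By reads this is the best-measured enzyme of the set. Its interval corresponds to a ratio from 0.695 to 1.04 on the CPM + 1 scale. Here and below, limma's SE and interval borrow variance from all genes tested and do not rest on the 2 libraries of each group alone.

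*Idi1* (Entrez 319554, chromosome 13 from 8885501 to 8892451, plus strand) encodes the isomerase that turns isopentenyl diphosphate into its reactive partner. It was at 2.56 and 6.66 CPM in the control pair against 3.32 and 6.08 CPM in ca-*Acvr1* libraries, which is 5, 15, 8 and 13 reads. The ca-*Acvr1* values lay inside the control range. Its log2 fold change was 0.08 with a 95% interval from −0.81 to 0.98 (limma), which is a ratio from 0.568 to 1.98 on the CPM + 1 scale. The log2 fold change was −0.06 in edgeR, −0.02 in DESeq2 and 0.01 in limma-voom, so its direction is not settled.

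*Fdft1* (Entrez 14137, chromosome 14 from 63145150 to 63179578, minus strand) encodes squalene synthase, the first step committed to sterols. It was at 18.4 and 24.9 CPM in the control pair against 12.5 and 16.4 CPM in ca-*Acvr1* libraries, from 30 to 56 reads each. Both ca-*Acvr1* libraries lay below both control libraries, which holds for 16.8% of all genes tested. Group means were 21.6 ± 4.57 and 14.4 ± 2.77 CPM (SD, n = 2 each), and the log2 fold change was −0.55 (SE 0.27, 95% interval from −1.10 to 0.003, limma adjusted p = 0.529). This was the farthest of the 7 from 0. It was also the 1 enzyme of the 7 under 0.05 before adjustment in edgeR's quasi-likelihood test, which gave an adjusted p of 0.456.

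*Sqle* (Entrez 20775, chromosome 15 from 59315077 to 59331192, plus strand) encodes squalene epoxidase, the first oxygen-dependent step. Its values were 170.2 and 185 CPM in the control pair against 141 and 194 CPM in ca-*Acvr1* libraries, from 333 to 416 reads each. The ca-*Acvr1* libraries lay on either side of both controls, and the log2 fold change was −0.10 (SE 0.16, 95% interval from −0.42 to 0.22, limma adjusted p = 0.912).

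*Cyp51* (Entrez 13121, chromosome 5 from 4081145 to 4104746, minus strand) encodes the cytochrome P450 that demethylates lanosterol. It was at 177 and 221 CPM in the control pair against 141 and 193 CPM in ca-*Acvr1* libraries, from 340 to 497 reads each. The groups overlapped. Group means were 199 ± 30.6 and 167 ± 36.5 CPM (SD, n = 2 each), and the log2 fold change was −0.26 (SE 0.16, 95% interval from −0.59 to 0.07, limma adjusted p = 0.670).

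*Sc5d* (Entrez 235293, chromosome 9 from 42251595 to 42264256, minus strand) encodes the desaturase that turns lathosterol into 7-dehydrocholesterol. It was at 65.9 and 64.8 CPM in the control pair against 65.6 and 74.9 CPM in ca-*Acvr1* libraries, from 129 to 160 reads each. The groups overlapped, with ca-*Acvr1* replicate 2 above the other 3 libraries. The log2 fold change was 0.10 (SE 0.17, 95% interval from −0.25 to 0.45, limma adjusted p = 0.920).

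*Dhcr7* (Entrez 13360, chromosome 7 from 143823145 to 143848410, plus strand) encodes the reductase that completes cholesterol from 7-dehydrocholesterol. It was at 19.4 and 19.5 CPM in the control pair against 19.1 and 24.3 CPM in ca-*Acvr1* libraries, from 38 to 52 reads each. Again ca-*Acvr1* replicate 2 was the library that stood above the other 3. The log2 fold change was 0.14 (SE 0.25, 95% interval from −0.37 to 0.65, limma adjusted p = 0.924). Of the 7, the 2 enzymes closest to the end product thus had log2 fold changes above 0, and the best-measured enzymes before them had log2 fold changes below 0. None of these differences passed the test, and whether the early and late enzymes differ from each other was not tested.

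**Figure D2:**
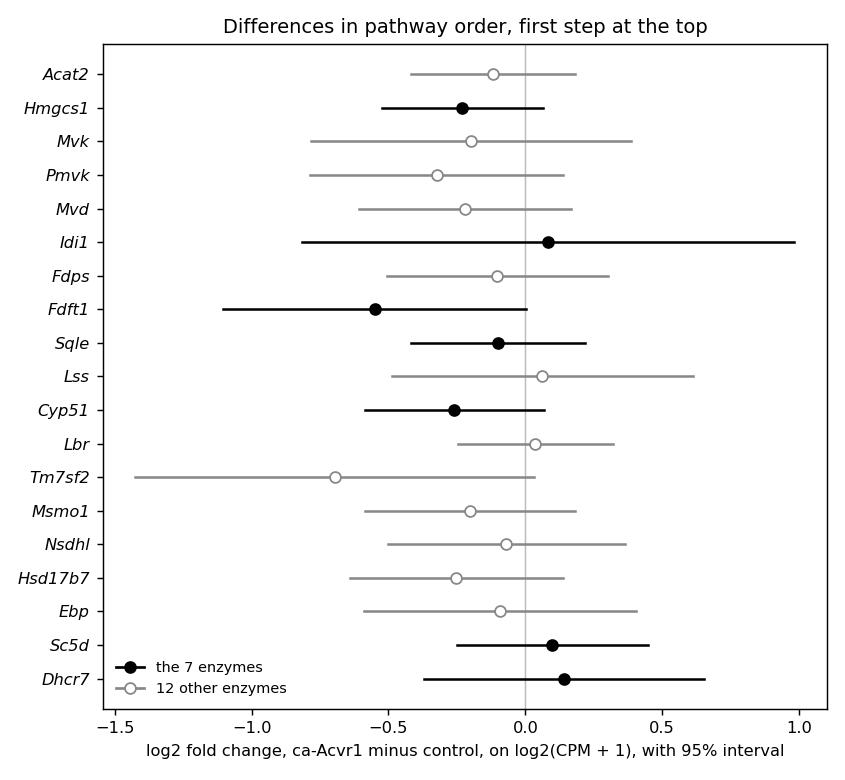
Log2 fold change of ca-*Acvr1* over control on log2(CPM + 1) with limma's 95% interval for 19 enzymes, from the first steps at the top to the last at the bottom, filled for the 7 enzymes and open for 12 others. Every interval shown reaches 0, and 14 of the 19 points lie below 0.

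The other 14 enzymes of the route, beginning with the thiolase *Acat2*, were all tested, and 0 of 14 passed limma's adjusted threshold. The unadjusted count was 0 of 14 in limma, edgeR and DESeq2 and 1 of 14 in limma-voom, with no adjusted call by any of them. Their log2 fold changes ran from −0.70 to 0.06 with a median of −0.16. Counting all 21 enzymes, 16 had a log2 fold change below 0, as did 45.8% of all genes tested. The groups did not overlap for 4 of the 21, each with the ca-*Acvr1* libraries below, namely *Fdft1*, *Pmvk*, *Tm7sf2* and *Hsd17b7*, and for 0 of the 21 with them above (16.8% and 21.9% of all genes tested).

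The values of *Hmgcs1* placed control replicate 2 highest, then ca-*Acvr1* replicate 2, control replicate 1 and ca-*Acvr1* replicate 1. That order held for 7 of the 21 enzymes and for 4.49% of all genes tested. Of the 7 enzymes it held for 2, *Hmgcs1* and *Cyp51*, whose upstream sequences are printed above. *Hmgcs1*, from which the order was read, is counted among them, so its own place was fixed in advance. The order was picked after the values were seen, and no test of it was made. *Pmvk*, the kinase that adds the second phosphate to mevalonate, was at 27.6 and 36.8 CPM in the control pair against 25.3 and 25.3 CPM in ca-*Acvr1* libraries, giving a log2 fold change of −0.32 (limma adjusted p = 0.719). *Tm7sf2*, a sterol reductase that acts after *Cyp51*, was at 11.8 and 13.8 CPM in the control pair against 11.6 and 4.68 CPM in ca-*Acvr1* libraries (log2 fold change −0.70, limma adjusted p = 0.556). The low value rests on 10 reads in 1 library, and without it the log2 fold change was −0.12.

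Most of the enzymes shared a difference between libraries of the same group. For 6 of the 7 enzymes, all but *Sc5d*, the libraries titled replicate 2 exceeded those titled replicate 1 in control and in ca-*Acvr1* tissue alike, although for *Dhcr7* the controls were 0.01 apart on the log2 scale. The same held for 14 of the 21 enzymes and for 27.6% of all genes tested. The summed level of the 7 enzymes was 1071 and 1264 CPM in control replicates 1 and 2 and 904 and 1146 CPM in ca-*Acvr1* replicates 1 and 2. For all 21 enzymes these sums were 2264, 2647, 1963 and 2453 CPM. The median difference of replicate 2 over replicate 1 for the 7 enzymes was 0.27 in control and 0.37 in ca-*Acvr1* libraries on the log2(CPM + 1) scale, beside 0.00 and 0.03 over all genes tested, and thus larger than the median difference between the groups.

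For several enzymes with many reads this spread was larger than counting error, but not for all. *Hmgcs1* differed between replicates by 0.27 in control and 0.29 in ca-*Acvr1* libraries on the log2 scale, 4.91 and 5.14 times the standard deviation that counting alone would give. *Cyp51* differed by 0.31 and 0.45, 3.11 and 4.23 times that of counting. *Msmo1*, the methyl sterol oxidase that acts after *Cyp51*, had the highest ratios of the 21, at 134 and 202 CPM in the control pair against 114 and 179 CPM in ca-*Acvr1* libraries, or 5.20 and 5.63 times the counting error. The sterol reductase *Lbr*, from 498 to 617 reads each, had ratios of 1.31 and 0.732, and *Acat2*, from 439 to 522 reads each, of 0.498 in control and 3.74 in ca-*Acvr1* libraries. For the low-read enzymes *Fdft1*, *Idi1* and *Dhcr7* the ratios were at most 1.49. The differences are on log2(CPM + 1), which understates them for genes with few reads, while the counting error is not reduced in the same way. These ratios are therefore understated, and they do not settle whether the spread of these enzymes exceeded counting. *Sqle* combined both, with 1.11 times in control and 4.30 times in ca-*Acvr1* libraries.

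**Figure D3:**
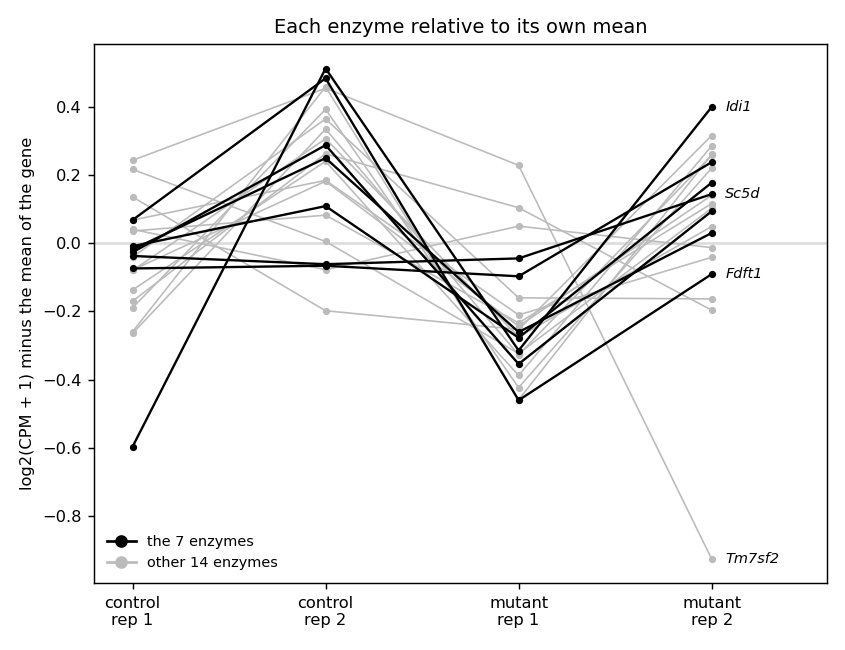
Log2(CPM + 1) of each of the 21 enzymes minus its own mean over the 4 libraries, black for the 7 enzymes and grey for the other 14. Most lines are high in replicate 2 of both groups and low in ca-*Acvr1* replicate 1, while *Tm7sf2* leaves the rest in ca-*Acvr1* replicate 2.

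Some cell type markers were also higher in the libraries titled replicate 2 of both groups, beside the 27.6% of all genes. This held for 8 of 12 mesenchyme markers and for 5 of 8 erythroid markers, whose summed level was 7051 and 8503 CPM in the control pair against 6724 and 7229 CPM in ca-*Acvr1* libraries. It held for 4 of 12 epithelial, 5 of 12 neural, 4 of 10 macrophage, 3 of 10 endothelial and 2 of 5 muscle markers, shares nearer to that of all genes. The part of these cell types in the replicate differences of the enzymes was not tested.

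Matched on the same numbers, ca-*Acvr1* replicate 1 lay below control replicate 1 for 6 of the 7 enzymes (median difference −0.24 on the log2 scale), and ca-*Acvr1* replicate 2 lay below control replicate 2 for 4 of the 7 (median −0.11). For all 21 enzymes the counts were 18 and 13, and over the 12462 genes tested they were 6063 and 5543. Within both numbers 3 of the 7 and 11 of the 21 were below, beside 24.3% of all genes tested. The labels do not say that a number marks a shared litter or batch.

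The mean profile of the 7 enzymes, each centred on its own mean, was −0.10 and 0.22 in control replicates 1 and 2 and −0.26 and 0.14 in ca-*Acvr1* replicates 1 and 2. The SD over the 7 was 0.22 and 0.24 in the controls and 0.14 and 0.16 in the ca-*Acvr1* libraries. *Idi1*, with 5 to 15 reads, differed most of the 7 between replicates, by 1.11 in control and 0.71 in ca-*Acvr1* libraries. It is part of this profile but averaged under 10 CPM, so it was not ranked. Among the 8354 genes with a mean of at least 10 CPM, ranked by Euclidean distance to this profile over the 4 libraries, *Hmgcs1* ranked 125, *Sqle* 138, *Cyp51* 144, *Acat2* 320 and *Fdps* 340. *Dhcr7*, *Sc5d* and *Fdft1* ranked 1734, 1981 and 3306, and *Tm7sf2* ranked 8265. The 5 nearest genes outside the lists of sterol and lipid genes were *Tox*, *Zfp1*, *Nhsl2*, *Ccm2* and *Rfesd*, at distances from 0.026 to 0.050. *Tox*, the first of them, was at 64.4 and 79.0 CPM in the control pair against 56.9 and 76.7 CPM in ca-*Acvr1* libraries. With 4 libraries and 8354 genes many profiles lie close together, and the 7 enzymes are themselves part of the profile.

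The genes that sense sterols and take up cholesterol were examined next. Of 14 genes for SREBP regulation and uptake 0 were called, 0 had an unadjusted p under 0.05 in limma, edgeR or DESeq2, and the median log2 fold change was 0.05, with 7 below 0 and 7 above. *Srebf2*, which encodes SREBP2, was at 40.9 and 36.4 CPM in the control pair against 41.1 and 47.7 CPM in ca-*Acvr1* libraries (log2 fold change 0.19, 95% interval from −0.21 to 0.60, limma adjusted p = 0.840). Its ca-*Acvr1* libraries lay just above both controls. *Stard4*, a carrier of sterol between membranes, was at 16.9 and 25.3 CPM in the control pair against 12.04 and 22.0 CPM in ca-*Acvr1* libraries (log2 fold change −0.32, limma adjusted p = 0.810). Its direction turned to 0.09 without ca-*Acvr1* replicate 1, and it was −0.73 without ca-*Acvr1* replicate 2. The libraries of *Stard4* had the same order as those of *Hmgcs1* and *Cyp51*.

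The genes of cholesterol storage, efflux and turnover had the widest spread of log2 fold changes of these lists. It ran from −1.48 to 0.86 over the 13 of 14 that were tested. Both ends were genes of few reads, *Cyp27a1* with 4 to 18 and *Cyp39a1* with 4 to 22, and the groups of *Cyp39a1* overlapped. limma called 0 of the 13, with 4 at an unadjusted p under 0.05, beside 0.899% and 9.55% of all genes tested. edgeR called 1 and DESeq2 and limma-voom called 0, beside 1.13%, 0.257% and 0.981% of all genes. At an unadjusted p under 0.05 these tools had 4, 3 and 4, beside 9.48%, 2.88% and 9.66%. *Mylip*, a ubiquitin ligase induced by sterol-activated LXR, was the gene edgeR called. It was at 11.2 and 22.6 CPM in the control pair against 7.06 and 6.55 CPM in ca-*Acvr1* libraries, giving a log2 fold change of −1.13 (SE 0.34). Its adjusted p was 0.152 in limma and 0.0489 in edgeR, and ran from 0.00258 without control replicate 1 to 1.00 with DESeq2 over the alternatives. Its controls differed from each other by more than the lower one differed from the ca-*Acvr1* libraries. *Cyp27a1*, a mitochondrial sterol hydroxylase, was at 6.64 and 7.99 CPM in the control pair against 1.66 and 2.34 CPM in ca-*Acvr1* libraries, from 4 to 18 reads (log2 fold change −1.48, limma adjusted p = 0.107). Over the alternatives its adjusted p ran from 0.0348 to 1.00, and 1 of 14 passed the threshold.

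*Apoe*, the apolipoprotein that carries cholesterol out of cells, was at 37.8 and 50.6 CPM in the control pair against 52.3 and 97.3 CPM in ca-*Acvr1* libraries (log2 fold change 0.69, SE 0.22, limma adjusted p = 0.198). The higher control and the lower ca-*Acvr1* library differed by little, and the size of the difference depended on single libraries. The log2 fold change was 0.25 without ca-*Acvr1* replicate 2 (limma adjusted p = 0.996), 1.14 without ca-*Acvr1* replicate 1 (0.00112) and 0.90 without control replicate 2 (0.00621), the last 2 of which passed the threshold. The summed level of the 10 macrophage markers, a cell type known for *Apoe*, was 52.6 and 54.6 CPM in the control pair against 88.8 and 130.1 CPM in ca-*Acvr1* libraries, with *C1qa* at 0 in control replicate 1. The part of macrophages in the *Apoe* values was not tested.

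Fatty acid synthesis, which SREBP1 controls, had 0 of 12 genes called, with a median log2 fold change of −0.03. At an unadjusted p under 0.05 there were 2 genes in limma and 2 in edgeR, beside 9.55% and 9.48% of all genes. These 2 genes lay in opposite directions. *Fasn*, fatty acid synthase, was at 114 and 112 CPM in the control pair against 135 and 165 CPM in ca-*Acvr1* libraries (log2 fold change 0.40, limma adjusted p = 0.343). *Scd2*, a desaturase of fatty acids, was at 509 and 507 CPM in the control pair against 449 and 389 CPM in ca-*Acvr1* libraries (log2 fold change −0.28, limma adjusted p = 0.512). In both genes the controls nearly coincided. *Me1*, the malic enzyme that supplies NADPH, was at 19.4 and 26.6 CPM in the control pair against 10.4 and 23.4 CPM in ca-*Acvr1* libraries (limma adjusted p = 0.644).

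The branch that leads from the same isoprenoids to dolichol, ubiquinone and prenylated proteins had 11 of its 12 genes tested and 0 called, with 0 at an unadjusted p under 0.05 in limma, edgeR or DESeq2 and a median log2 fold change of 0.03. *Rabggtb*, a subunit of the transferase that prenylates Rab proteins, was at 113 and 118 CPM in the control pair against 136 and 143 CPM in ca-*Acvr1* libraries (log2 fold change 0.27, limma adjusted p = 0.612). Its partner *Rabggta* was at 4.60 and 5.77 CPM in the control pair against 12.04 and 5.62 CPM in ca-*Acvr1* libraries (limma adjusted p = 0.690), and *Coq2*, of ubiquinone synthesis, at 32.7 and 35.1 CPM in the control pair against 39.9 and 36.5 CPM in ca-*Acvr1* libraries (limma adjusted p = 0.871).

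**Figure D4:**
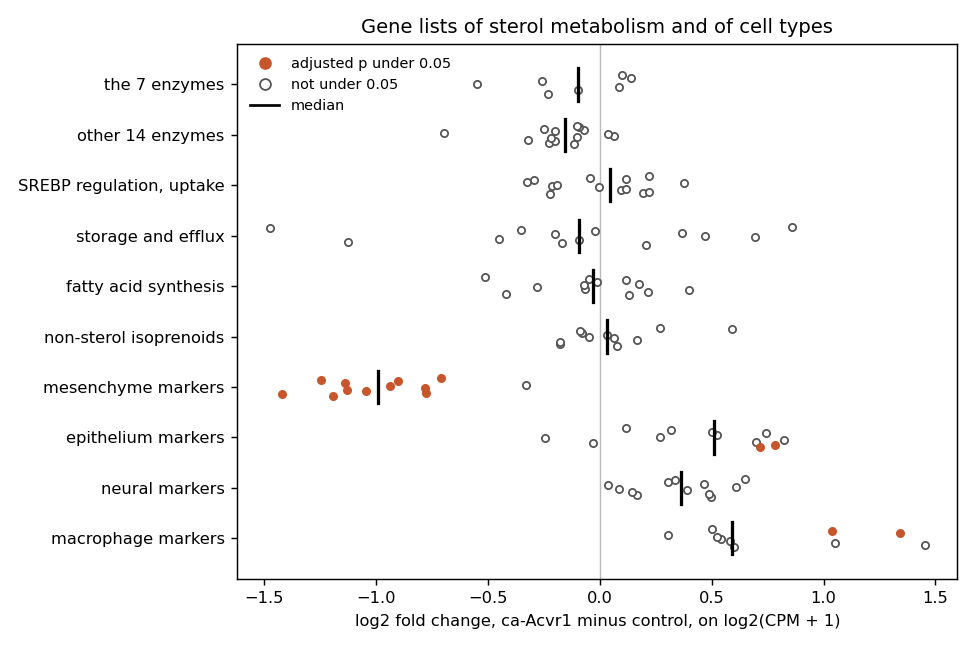
Log2 fold change of ca-*Acvr1* over control for each gene tested of 6 lists of sterol and lipid genes and 4 lists of cell type markers, with orange points for an adjusted p under 0.05 from limma and a black bar at the median. No gene of the 6 metabolic lists was called, while 11 of 12 mesenchyme markers lie at the left.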

How the data were processed

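Total RNA of E11.5 NP tissues was made into libraries by the authors with Lexogen's QuantSeq 3′ kit, whose oligo(dT) priming places reads near the 3′ end of a transcript. The submitters' processing notes name STAR, featureCounts 1.6.4, DESeq2 and the build mm10, without their order or settings. The authors deposited CPM values, scaled to the total of each library. Levels are not compared between genes, since priming can differ. Within a tolerance of 0.02 reads, from 99.87% to 99.98% of the values of a library were whole multiples of 1 read. Of 22 genes with other values none is a member of a list used here.

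Groups follow the sample titles. limma 3.58.1 in R 4.3.3 was fitted with a mean-variance trend to log2(CPM + 1) of the 12462 genes averaging above 1 CPM, and p-values were adjusted over all of them by Benjamini-Hochberg, with a threshold of 0.05. On this scale the change of genes with few reads is understated. edgeR 4.0.16 (quasi-likelihood test with TMM factors), DESeq2 1.42.0 and limma-voom were run on the recovered reads as alternatives, besides other pseudocounts, filters and scalings, a replicate block and the omission of each library. The scripts were tested on simulated data. No single value was tested by permutation, which cannot reach 0.05 with 2 libraries a group. Counting error is that of Poisson counts and covers counting only.

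The 7 enzymes, the lists and the alternatives were chosen with earlier results of these data known. The genes named are the 7 enzymes, the called genes and the 3 with the smallest p of each other list, the 5 nearest by profile, and *Acvr1*. Some genes that this rule names are counted in their lists but not reported here by name. *Msmo1*, *Hsd17b7*, *Cyp39a1*, the ranked enzymes and the markers named were picked after their values were seen. Coordinates are from GENCODE M21 (GRCm38), and upstream sequences from RefSeq (GRCm38.p6). Unused columns of values numbered 0.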

Additional observations from a re-analysis of the deposited data

How the results depend on the processing

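The number of the 7 enzymes called was 0 under all 15 alternatives, and the same held for the other 14 enzymes and for the lists of SREBP regulation, fatty acid synthesis and non-sterol isoprenoids. The lowest adjusted p of any of the 7 was 0.136, for *Hmgcs1* in limma without control replicate 1. The median log2 fold change of the 7 enzymes, −0.10, lay from −0.17 to −0.10 under the alternatives that keep all libraries and from −0.36 to 0.13 with 1 library left out, where it was above 0 without ca-*Acvr1* replicate 1. *Fdft1*, *Hmgcs1* and *Cyp51* stayed below 0 and *Sc5d* above 0 in every alternative, while *Sqle*, *Dhcr7* and *Idi1* changed sign in 1, 1 and 4 of theirs. Their sizes were less steady: with 1 library left out *Hmgcs1* ran from −0.38 to −0.09, *Cyp51* from −0.48 to −0.04, *Fdft1* from −0.76 to −0.34 and *Sc5d* from 0.0049 to 0.19. The values nearest 0 came without ca-*Acvr1* replicate 1 for *Hmgcs1* and *Cyp51*, without control replicate 2 for *Fdft1* and without ca-*Acvr1* replicate 2 for *Sc5d*. *Idi1* has under 10 reads in some libraries and was left out where 10 were required in each.

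The genes called over the whole table numbered 112, 32 with DESeq2, and from 94 to 462 with 1 library left out, the highest without control replicate 1. Of the storage and efflux genes, 0 were called in the main setting, 1 with edgeR, and from 0 to 1 with 1 library left out (*Mylip* without control replicate 1, *Apoe* without control replicate 2 or ca-*Acvr1* replicate 1). A group with 1 library left was assumed to vary like the other. Across genes the replicate differences of the 2 groups correlated with r = 0.067, and with r = 0.148 over the 6568 genes above 20 CPM. With no label that ties equal numbers together and only 2 of them, the numbers were not taken as pairs. With the number as a replicate block 229 genes were called, 3 of them storage and efflux genes (*Cyp27a1*, *Mylip* and *Apoe*), and 0 of the 7 enzymes. The cause of these changes was not tested. Depth limits *Idi1*, *Fdft1* and *Dhcr7* most.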
